A study of Homo sapiens with 3 samples.

Results

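HMGA2, ZEB1, SNAI2 and VIM are 4 genes tied to the mesenchymal state of carcinoma cells. The m6A regions that fell in their loci were 82 of the 41836 regions that the study lists for nuclear RNA of MDA-MB-231. A region was counted for a gene when its midpoint lay in a fixed hg19 window for that gene, given in whole kb. The windows were not checked against an hg19 gene model, so positions are given from the window edges and not from transcript ends. Other genes on the same strand inside the windows were not looked up, so a counted region may belong to another transcript. The windows ran from 66218 to 66361 kb of chromosome 12 for HMGA2 (143 kb, plus strand), from 31608 to 31819 kb of chromosome 10 for ZEB1 (211 kb, plus strand), from 49830 to 49834 kb of chromosome 8 for SNAI2 (4 kb, minus strand) and from 17270 to 17280 kb of chromosome 10 for VIM (10 kb, plus strand). HMGA2 held 61 regions, ZEB1 17, SNAI2 0 and VIM 4.

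N6-methyladenosine (m6A) is a methyl mark that a nuclear methyltransferase complex places on adenosines of RNA while transcripts are being made. In mature mRNA it is best known from long internal exons and from the surroundings of stop codons, and a common sequence context is GGACT. HMGA2 is an architectural protein that binds AT-rich DNA and is a classical target of the let-7 microRNAs. ZEB1 and SNAI2 (also called Slug) are zinc finger repressors of E-cadherin and other epithelial genes. VIM encodes vimentin, the intermediate filament protein of mesenchymal cells.

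MDA-MB-231 is an established human breast cancer line with a mesenchymal form. Nuclear RNA of these cells was captured with a rabbit m6A antibody in 2 libraries and with rabbit IgG in 1 library. The values analysed were the positions of 1 region list for the whole series, with 0 columns for a single library. No spread between libraries, depth or enrichment over IgG stood behind any value, so the comparisons are descriptions without a test. Counts follow both the amount of nuclear RNA of a gene and its methylation, and these cannot be told apart here.

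**Figure D1:**
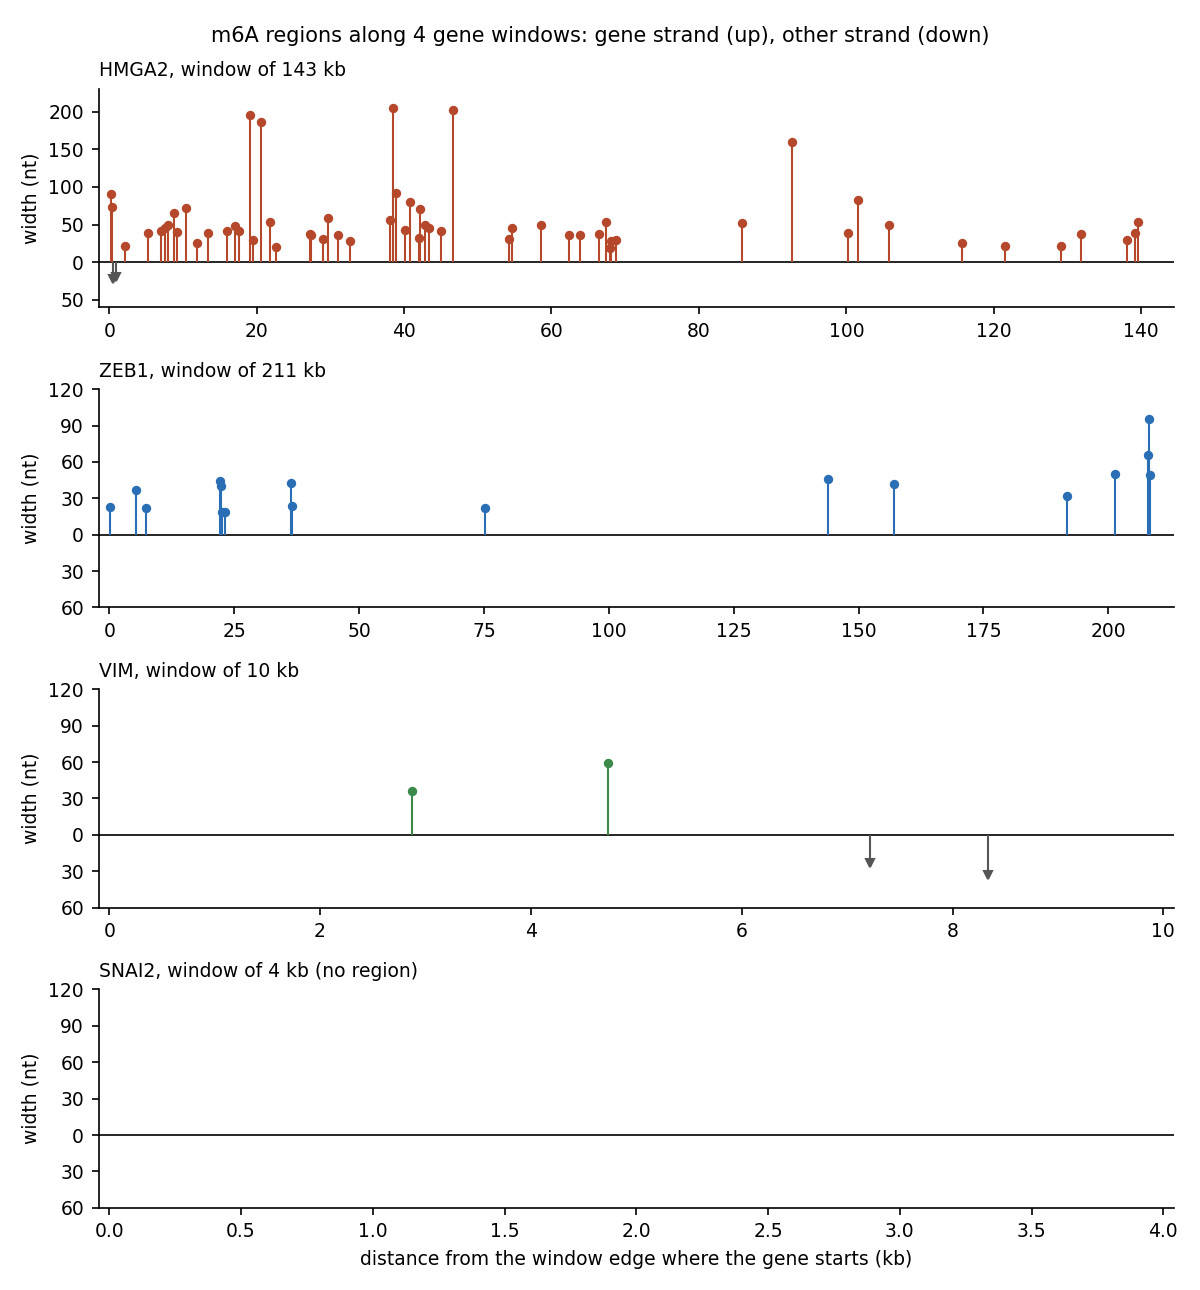
Each m6A region of the 4 windows, by the distance of its midpoint from the window edge where the gene starts (kb) and its width (nt). Circles above the line are on the strand of the gene and triangles below it on the other strand. HMGA2 had 59 and 2, ZEB1 17 and 0, and VIM 2 and 2, while SNAI2 had none.

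The HMGA2 locus was densely covered. It held 59 regions on its own strand, or 41.3 per 100 kb, and they covered 3339 nt, which is 2.33% of the window. In the whole list, a tile of 143 kb that had any region on a strand had a median of 2 and a 95th percentile of 15 on that strand. At least 59 were found in 6 of 9561 such tiles (0.0628%). The HMGA2 window was therefore among the most region-rich stretches of its length, although tiles are placed without regard to genes.

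The edges of the HMGA2 regions lay close to those of the gene window. The equal stretch of 143 kb upstream held 0 regions on the plus strand, and the one downstream held 1. Such counts are usual for this length: of 41998 tiles of 143 kb per strand, 32437 held 0 regions and 3631 held 1. The nearest plus-strand regions outside the window were 480 kb upstream and 90.4 kb downstream. The first HMGA2 region, from 66218165 to 66218255 (91 nt), had its midpoint 0.21 kb from the window start, and a second one of 73 nt followed at 0.44 kb. The last 3 regions lay between 66356115 and 66357592, at 138.13 to 139.57 kb. Regions thus ran from the start to nearly the end of the window.

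Most HMGA2 regions lay in the first part of the window. Of the 59 regions, 47 lay before the middle of the window (79.7%) and 12 after it, and the mean position was 34.5% of the way along. In 10 equal parts of the window (14.3 kb each) from start to end, the counts were 12, 10, 12, 5, 8, 1, 1, 3, 2 and 5. Each of the first 5 parts held more than any of the next 4, and the last part held as many as the fourth.

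The longest stretch of HMGA2 without a plus-strand region measured 17.0 kb, from 68.75 to 85.79 kb, and it divided the locus into 2 parts. Joining same-strand regions at most 10 kb apart gave one chain of 47 regions over 68.6 kb, from 66218165 to 66286761, with 68.5 regions per 100 kb. A chain of 12 regions over 53.8 kb followed, from 66303766 to 66357592, with 22.3 per 100 kb. Chains with 47 or more regions numbered 19 among the 16073 of the whole list (0.118%) and 5 among the 7521 on the plus strand. The first chain was thus one of the 5 largest on the plus strand.

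Within HMGA2 the median gap between neighbours was 1.24 kb over 58 gaps, with a range of 0.113 to 17.0 kb. The median over all same-strand neighbours of the list was 4.69 kb. That value also takes in the gaps between separate loci, so it is not a like measure for gaps inside 1 locus. Regions at most 1 kb apart formed 36 runs, with 36 of the 59 regions in 13 runs of at least 2 and the other 23 alone. The largest runs had 5 regions each, from 66224983 to 66227270 and from 66284373 to 66286761. A run of 4 spanned 66260016 to 66261473.

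The number of runs exceeded what the exons of HMGA2 could hold. GENCODE release 29 gives HMGA2 (ENSG00000149948.13) a length of 142 kb in GRCh38, and its principal transcript has 5 exons with 4473 nt in all, or 3.15% of the gene, and a longest intron of 113 kb. Runs more than 1 kb apart can touch exons of those lengths in at most 9 places. With 36 runs, at least 27 therefore lay outside the exons of that transcript, and at least 14 outside every annotated exon of the gene (10 exon blocks of 15403 nt in all). For the principal transcripts of ZEB1 (11 runs, at most 12 places) and VIM (2 runs, at most 10 places) the same minimum was 0. It was not computed for other loci of the list, so it does not set HMGA2 apart from them. This count uses lengths only and holds for runs joined at 1 kb. It takes exon lengths as equal in both builds, and places no single region in an intron or exon. Nuclear RNA contains unspliced precursors as well as mature transcripts.

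The other strand of the HMGA2 window held 2 regions, both within 1 kb of its start. They had 23 nt (66218504 to 66218526) and 20 nt (66218868 to 66218887), and a further minus-strand region of 48 nt lay 0.477 kb before the window (66217476 to 66217523). One minus-strand region thus lay before the first 2 plus-strand regions and 2 lay after them. GENCODE lists 3 genes on the minus strand that overlap HMGA2 in GRCh38, RPSAP52 (a transcribed pseudogene), AC090673.1 and AC090673.2; which of them, if any, the regions belong to was not tested. Of the 6 tiles with 59 or more regions on at least 1 strand, 5 had at most 2 on the other (83.3%). With only 6 tiles, this does not show what is usual at this density.

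**Figure D2:**
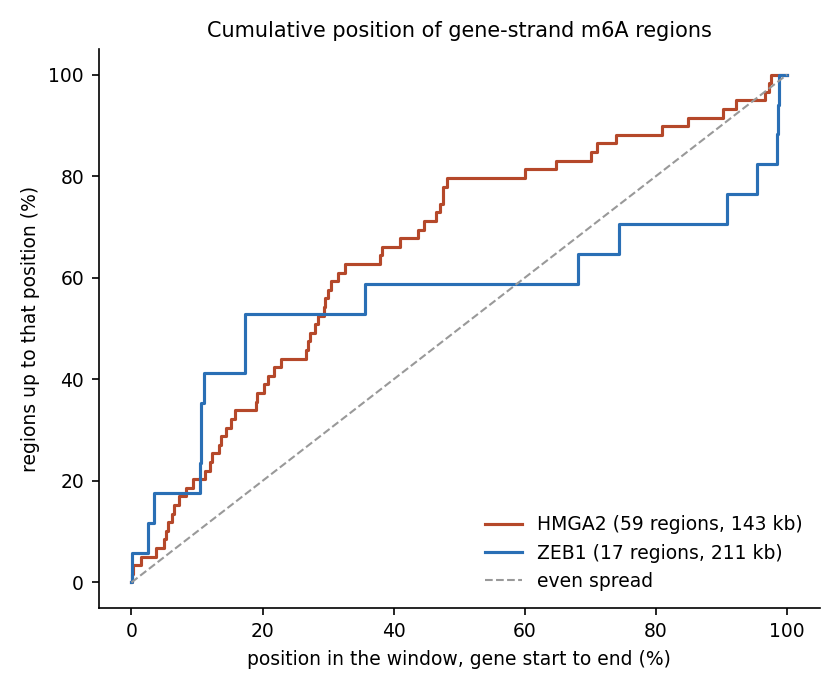
Share of the gene-strand m6A regions of HMGA2 (59) and ZEB1 (17) that lie up to each position of the gene window (%), with a dashed line for an even spread. HMGA2 reaches 79.7% at the middle of its window, and ZEB1 is flat between 35.6 and 68.2%.

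ZEB1 was covered far more thinly than HMGA2. Its 17 regions, all on the plus strand, made 8.06 per 100 kb and covered 673 nt or 0.319% of the window. The density of HMGA2 was 5.12 times as high. Among tiles of 211 kb with any region on a strand, 466 of 8299 held at least 17 (5.62%), with a median of 3. ZEB1 was therefore in the upper part of the list but far from its richest loci.

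The regions of ZEB1 gathered toward both ends of the window. From its start they lay at 0.18 kb (23 nt), 5.46 kb (37 nt) and 7.34 kb (22 nt). A run of 4 followed between 31630158 and 31631279 (22.18 to 23.27 kb), with widths of 44, 40, 19 and 19 nt. A pair of 43 and 24 nt stood at 36.4 and 36.59 kb, from 31644383 to 31644603. The first 2 of 10 equal parts of the window (21.1 kb each) thus held 3 and 6 regions.

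The middle of ZEB1 was nearly empty. A single region of 22 nt lay at 75.15 kb (31683137 to 31683158), between stretches of 38.5 and 68.6 kb with none. The regions at 143.8 kb (46 nt) and 157.0 kb (42 nt) also stood alone, and 34.7 kb without a region came after them. GENCODE gives ZEB1 (ENSG00000148516.21) a length of 211 kb and the principal transcript a longest intron of 142 kb. Whether the empty stretches lie in that intron was not tested.

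Toward the end of the ZEB1 window the regions lay closer than in its middle, and most were wider than those before them. One of 32 nt lay at 191.77 kb and one of 50 nt at 201.24 kb (31809219 to 31809268). The last 3, of 66, 95 and 49 nt, formed a run from 31815871 to 31816419, at 207.9 to 208.39 kb, which is 98.5 to 98.8% of the way along the window. The median width was 23.5 nt over the 10 regions before the middle of the window (19 to 44 nt) and 49 nt over the 7 after it (32 to 95 nt). All 5 ZEB1 regions wider than the list's median of 45 nt lay after the middle, with a mean position of 91.9%, against 43.8% for all 17. In HMGA2 the median widths were 42 nt before the middle of the window and 39 nt after it.

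No region of ZEB1 lay on the minus strand. Counted as tiles with both strands together, 456 tiles of 211 kb had 17 or more regions on at least 1 strand, and 228 of them (50.0%) had none on the other. The nearest minus-strand region, of 39 nt from 31606188 to 31606226, was 1.77 kb before the window start. GENCODE lists 2 minus-strand genes that overlap ZEB1 in GRCh38, ZEB1-AS1 and AL117340.1, and whether that region comes from either was not tested. On the plus strand the equal stretches on both sides held 0 regions, and the nearest were 615 kb upstream and 1460 kb downstream. Of the 28482 tiles of 211 kb per strand, 20183 held no region, so empty stretches of this length were common in the list.

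**Figure D3:**
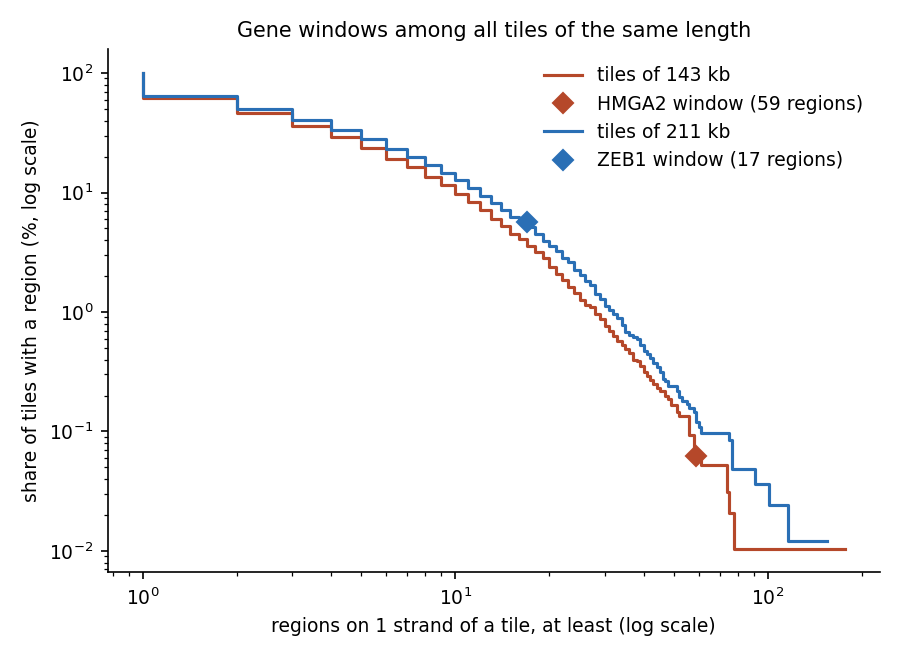
Share of tiles with a region (%) that hold at least a given number of regions on 1 strand, for tiles of 143 and 211 kb, on log axes. Diamonds mark the HMGA2 window (59 regions, 0.0628%) and the ZEB1 window (17 regions, 5.62%).

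SNAI2 had no region on either strand of its window. GENCODE gives the gene (ENSG00000019549.11) a length of 4.14 kb in GRCh38, with 3 exons and 2428 nt of mRNA, and extending the window by 1 kb at each end added none. Of all tiles of 4 kb per strand, 98.1% held no region, so an empty window of this length carries little information. SNAI2 also lay in a wide empty stretch. Nothing was listed on either strand from 48887432 to 50884494 of chromosome 8, a length of 2.0 Mb. Stretches at least as long numbered 184 among 41568 in the list and 9 on chromosome 8, where 481 plus-strand and 1454 minus-strand regions were listed. Long stretches take up more of the genome than their number implies, so these counts do not say how rare such a place is. The absence of SNAI2 from this list does not show that its RNA lacks m6A, since no depth or expression value is at hand.

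VIM held 4 regions, evenly divided between the strands, with 20.0 per 100 kb on its own strand. On the plus strand, that of the gene, they lay from 17272849 to 17272884 (36 nt, at 2.87 kb) and from 17274701 to 17274759 (59 nt, at 4.73 kb). On the minus strand they lay from 17277213 to 17277235 (23 nt, at 7.22 kb) and from 17278320 to 17278352 (33 nt, at 8.34 kb). The plus-strand regions thus lay before the middle of the window and the minus-strand ones after it, and none lay in the first 2 kb.

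An equal number on both strands was uncommon among tiles of 10 kb with as many regions as VIM. At least 2 regions on a strand were held by 38.7% of the tiles of 10 kb with any region on it, and by 1.46% of all tiles of 10 kb. Of 1080 tiles of 10 kb with 4 regions in all, 15 (1.39%) had 2 on each strand. GENCODE lists 2 minus-strand genes that overlap VIM (ENSG00000026025.15, 9.34 kb) in GRCh38, VIM-AS1 and AL133415.1, and whether the minus-strand regions come from them was not tested. The 10 kb on each side held 0 regions. Of 600002 tiles of 10 kb per strand, 577369 held none, so empty stretches of this length carry little information. The nearest plus-strand region lay 447 kb downstream and the nearest minus-strand region 366 kb downstream.

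The common m6A context GGACT was looked up in the principal transcripts, as letters in the RNA strand only, because region sequence in hg19 was not used here. Among 19677 coding genes, 87.9% had the motif in the transcript and 71.9% in the coding sequence, with a median of 0.93 per kb of transcript. HMGA2 had 5 (1.12 per kb), none of them in its 327 nt of coding sequence. ZEB1 had 3 (0.55 per kb), 1 of them in its coding sequence. VIM had 2 (0.94 per kb), both in its coding sequence, and SNAI2 had 1 (0.41 per kb), also in its coding sequence. The first coding match of ZEB1, in exon 7 at chr10:31520236-31520264, and of VIM, in exon 2 at chr10:17229653-17229681 (GRCh38, plus strand), are shown for what such a site looks like, with the motif in capitals; no region could be assigned to them.
ZEB1: cgaccaagaacaGGACTcaagacatctca
VIM: gcggctcctgcaGGACTcggtggacttct

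The median widths in HMGA2 and ZEB1 were close to that of the list. The median was 42 nt in HMGA2 (quartiles 34 and 55, range 19 to 205), 40 nt in ZEB1 (quartiles 23 and 46, range 19 to 95) and 44 nt over the 17829 plus-strand regions (quartiles 31 and 53). Regions over 100 nt made up 5 of 59 in HMGA2 (8.47%) and 0 of 17 in ZEB1, against 10.3% of the whole list. The density of HMGA2 therefore did not come with a larger share of wide regions.

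The 5 wide HMGA2 regions were scattered. Those of 196 nt (66237054 to 66237249) and 186 nt (66238503 to 66238688) lay at 19.15 and 20.59 kb. Those of 205 nt (66256393 to 66256597) and 202 nt (66264568 to 66264769) lay at 38.49 and 46.67 kb. The last, of 160 nt (66310530 to 66310689), was the only one past the middle, at 92.61 kb. None of them lay in the first or the last of the 10 equal parts.

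**Figure D4:**
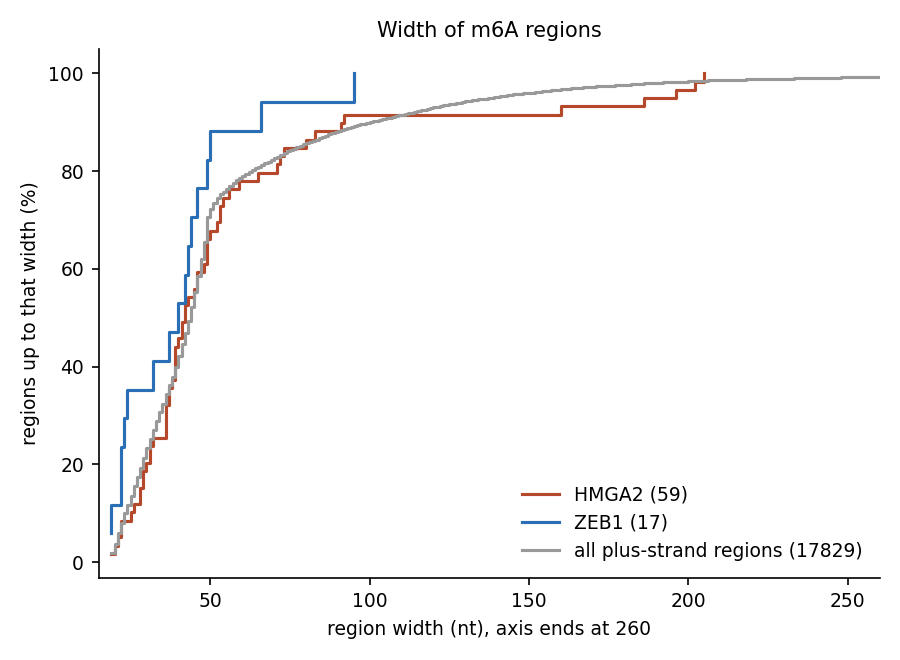
Share of regions (%) up to each width (nt) for HMGA2 (59 regions), ZEB1 (17) and all plus-strand regions (17829), with the axis ending at 260 nt. HMGA2 runs close to the list, and ZEB1 reaches 100% at 95 nt.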

How the data were processed

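Nuclear RNA libraries of MDA-MB-231 cells (m6A, 2; IgG, 1) were represented by 1 deposited list of regions with chromosome, start, end, name, score and strand. Bowtie2 and hg19 are named in the submitters' processing notes. How the regions were called and how IgG entered the calling is not given in the sources used here. Every region carries the same deposited score of 1, given by the authors, which was not used. Starts were changed to count from 1, and width is end minus start as deposited.

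Regions were assigned by midpoint. Tiles ran from the first to the last region of each chromosome, and same-strand regions were joined at 1 kb (runs) or 10 kb (chains). Gene lengths, exons and transcripts came from GENCODE 29 in GRCh38, and positions of the 2 builds were never set against each other; the principal transcript was the one ranked best by APPRIS, then the longest. The members and lists were chosen with earlier results of these data known, and the motif, exon-length, chain and empty-stretch descriptions after the regions were seen. The named genes were the 4 members; the other mesenchymal genes listed in the plan were not analysed here, since no hg19 annotation was used. The counting functions were tested on simulated data. Python 3.11.15, numpy 2.4.6 and pandas 2.3.3 were used. Alternatives were overlap in place of midpoint, windows extended by 1 kb, regions wider than the median, joining at 250 nt, runs at 2 or 0.5 kb, shifted tiles, and tiles with at least 2 regions.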

Additional observations from a re-analysis of the deposited data

How the results depend on the processing

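Of 92 values recomputed under 8 alternatives, 69 stayed within the limits set for them (1.5 times for counts, 10% for widths, 5 percentage points for positions and the 95% Wilson interval for shares) and 23 moved. Keeping only regions wider than the list's median left 26 regions in HMGA2 (20 runs, median width 62 nt, 100% on the strand of the gene, a tile share of 0.408%), 5 in ZEB1 (3 runs, 50 nt, mean position 91.9%, a tile share of 23.5%) and 1 in VIM (1 run, 59 nt, position 47.3%, 100% on the strand of the gene, a tile share of 100%); the share of empty tiles for SNAI2 became 99.0%. These counts fall by construction, and with 1 region left the tile share of VIM can only be 100%. The mean position of ZEB1 rose from 43.8% to 91.9%, since no region before the middle of its window was wider than the list's median. Under overlap the tiles were still counted by midpoint, so with unchanged counts per gene the tile shares could not move. Some of the 69 values therefore stayed by construction. Windows extended by 1 kb gave tile shares of 40.5% for VIM and 97.4% for SNAI2. Runs joined at 2 kb numbered 18 in HMGA2 and 1 in VIM. Tiles with at least 2 regions gave shares of 8.72% for ZEB1 and 100% for VIM. That share of VIM is fixed by the setting, since VIM itself held 2 regions on its strand. No paired analysis was possible because single libraries have no values in the list, and for the same reason no library could be left out. Depth and enrichment over IgG are unknown.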

Other observations

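The nearest regions downstream of HMGA2 lay opposite each other, 90.4 kb past the window. A plus-strand region of 65 nt, from 66451384 to 66451448, stood inside a minus-strand region of 79 nt, from 66451379 to 66451457. Neither was counted for HMGA2.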
